A study of Mus musculus with 20 samples.

Results

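The comparison set 5 salivary glands of C57BL/6J mice aged 16 weeks against 5 of the same strain aged 8 weeks, 10 of the 20 arrays of the series, chosen by the age given in the sample titles. All mice were of the inbred C57BL/6J background with no allele, transgene or treatment given, and in the study they served as the healthy counterpart of a strain that develops a Sjögren's syndrome-like disease. Each array held the RNA of the glands of a single mouse, dissected free of lymph nodes, so the 5 arrays of an age are 5 animals. The other 10 arrays came from 5 mice at 4 weeks and 5 at 12 weeks, and they entered the fit and are given as levels where they help to place a value. The time of day of dissection is not given in the sources used here. The question was which transcripts of the healthy gland differ between the young adult and the older adult mouse.

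The salivary glands of the mouse comprise the submandibular, sublingual and parotid glands, each built from acinar cells, which secrete fluid and proteins, and from ducts, which modify the saliva. In the submandibular gland the granular ducts mature around puberty and store kallikreins and growth factors such as EGF. Acinar cells carry a dense endoplasmic reticulum (ER), and, as in most tissues, a molecular clock of transcriptional activators and repressors drives daily rhythms of many transcripts in the gland.

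Values are log2 signals of an Affymetrix mouse genome array, and a gene is represented by its probe set of highest mean signal. The bulk tissue cannot tell fewer cells of a type from less RNA per cell. The labels state that the mice were male, yet Xist, the transcript of the inactive X chromosome, had log2 signals between 8.96 and 10.41 on the 10 arrays, and the Y-linked Eif2s3y lay between 2.07 and 2.90. The mean signal of Xist stood at percentile 98.9 of the measured genes over all 20 arrays and that of Eif2s3y at percentile 1.3, so these markers go against the labelled sex at every age. Neither marker passed the test between the 2 ages. The difference of Xist was 0.11 (95% interval -0.58 to 0.80) and that of Eif2s3y -0.32 (-0.63 to -0.01, adjusted p = 0.846). The spread of signal, the SD of all genes of an array, was 1.498 ± 0.0901 (SD, n = 5) in the younger and 1.511 ± 0.139 (n = 5) in the older mice, a difference of 0.0132. The two-sided p was 0.857 by an exact permutation test, which can give no p below 0.00794. Mouse 1 at 16 weeks had the widest spread, 1.74, while the 9 other arrays lay between 1.382 and 1.598.

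No gene passed the threshold. Of 18194 genes, 0 (0%) were lower and 0 (0%) were higher at 16 weeks at an adjusted p under 0.05, and the lowest adjusted p was 0.231. At an unadjusted p under 0.05 there were 798 lower (4.39%) and 259 higher genes (1.42%), 1057 in all. With no difference between the ages a share of 0.05 of genes would reach it. The 5 values of the ages did not overlap for 141 lower (0.775%) and 31 higher genes (0.17%), 172 in all. Random labels of the mice would separate a share of 0.00794 of genes. Both counts lie near these shares and are not read as a result. A difference of more than 1 on the log2 scale was seen for 14 lower (0.0769%) and 20 higher genes (0.11%). The count depended on the scaling, as 7 genes passed after cyclic loess normalization and 12 when the SD of each array entered the model, and 6 genes passed in both (Gpr155, Usp2, Nr1d1, Fads2b, Slc25a34 and Hspa8). The precision bounds what this absence of calls can show, as the median half-width of the 95% interval of a gene was 0.374 on the log2 scale. A count of 0 therefore does not show that the transcriptomes of the 2 ages were alike. The intervals rest on a spread shared by the 4 ages. The median correlation of an array with the others of its age was 0.970 to 0.978 at 12 weeks. It was 0.921 to 0.940 at 8 weeks and 0.924 to 0.956 at 16 weeks. Intervals given here can thus be too narrow for genes that varied more at the 2 ages compared. A fit of these 2 ages alone, given at the end, had 0 genes past the threshold. A further 10143 probe sets carry no single gene symbol, and of these 0 passed, with 780 lower and 260 higher at an unadjusted p under 0.05.

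The lowest adjusted p of 0.231 was shared by 5 genes, the clock repressor Nr1d1, the ubiquitin-specific protease Usp2, the mitochondrial carrier Slc25a34, the katanin-like Katnal1 and Gpr155, an integral membrane protein. Gpr155 had overlapping ages and was chosen for the text after its values had been seen. The others belong to the 10 genes of lowest p in each direction whose ages did not overlap, and these 20 leading genes are described below. They were chosen by their values in this contrast, so their separation is a description and not a test.

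**Figure D1:**
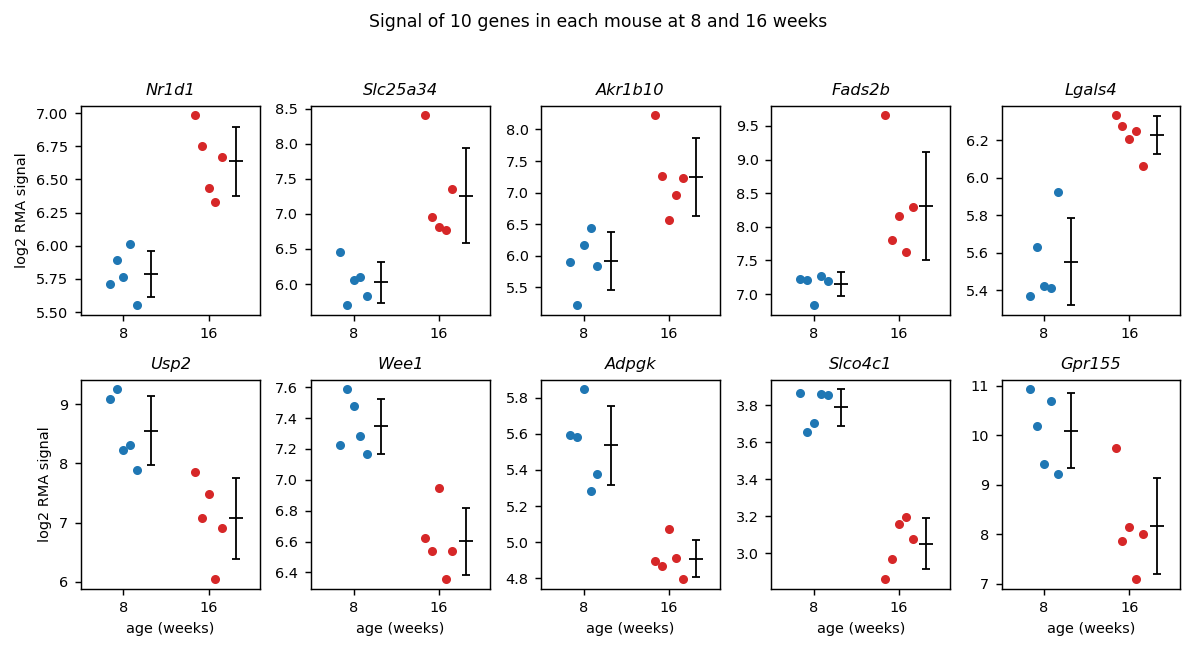
The log2 signal of 10 genes is plotted for each mouse at 8 weeks (blue) and 16 weeks (red), with the mean and SD of the 5 mice as a black bar. In all genes other than Gpr155 the points of the ages do not overlap, and mouse 1, the leftmost red point, is the highest of the 16-week mice in the 5 genes of the upper row.

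Nr1d1 encodes REV-ERB alpha, a nuclear receptor that represses transcription in the clock. Its log2 signals were 5.71, 5.89, 5.76, 6.01 and 5.55 at 8 weeks and 6.98, 6.76, 6.44, 6.33 and 6.67 at 16 weeks. The lowest mouse at 16 weeks thus lay above the highest at 8 weeks, and the fitted difference was 0.85 ± 0.17 (SE), or 1.80-fold (95% interval 1.41 to 2.31). The 8-week mice were also below all mice at 4 weeks (6.32 to 7.21) and 12 weeks (6.23 to 6.79), so the 8-week group was the one set apart for this gene. Thra, the thyroid hormone receptor alpha gene, overlaps Nr1d1 on the opposite strand and is also among the leading genes. Its signals were 6.32, 6.36, 6.26, 6.50 and 6.39 at 8 weeks and 6.93, 6.75, 6.77, 6.73 and 6.65 at 16 weeks, a difference of 0.40 ± 0.11. Each of the 3 Thra probe sets was higher at 16 weeks, by 0.40, 0.51 and 0.60. Because the genes overlap, the pair is not counted here as independent observations.

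Usp2, a deubiquitinating enzyme whose transcript is rhythmic in many tissues, was the lowest in p among the lower genes whose ages did not overlap. Its signals were 9.09, 9.26, 8.22, 8.32 and 7.90 at 8 weeks and 7.85, 7.08, 7.49, 6.04 and 6.90 at 16 weeks. The groups came close (7.85 and 7.90) but did not overlap, and the fitted ratio was 2.79-fold (95% interval 1.85 to 4.23) in favour of 8 weeks. Both Usp2 probe sets pointed the same way, with differences of -1.48 and -1.03. Here it was the 16-week group that stood apart, since the mice at 4 weeks (8.57 to 9.29) and 12 weeks (8.95 to 9.58) lay in or above the range at 8 weeks. Wee1, a kinase that holds back entry into mitosis and a known clock output, had the same order. It measured 7.22, 7.59, 7.48, 7.28 and 7.16 at 8 weeks and 6.62, 6.54, 6.95, 6.36 and 6.54 at 16 weeks, a difference of -0.75 ± 0.16 (adjusted p = 0.334). On this probe set all 5 of the 16-week values were below every one of the 15 other arrays, while the dimmer probe set differed by -0.15.

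Fads2b was among the higher genes and is a member of the fatty acid desaturase family. It measured 7.23, 7.21, 6.84, 7.27 and 7.20 at 8 weeks and 9.66, 7.81, 8.16, 7.63 and 8.30 at 16 weeks. The difference was 1.16 ± 0.26, and mouse 1 at 16 weeks stood clear above its group. Akr1b10, an aldo-keto reductase that reduces aldehydes and retinal, measured 5.90, 5.22, 6.17, 6.43 and 5.84 against 8.23, 7.27, 6.56, 6.96 and 7.23, a difference of 1.34 ± 0.28, and its other 2 probe sets differed by 0.42 and 0.32. Angptl4, a secreted inhibitor of lipoprotein lipase, measured 5.26, 5.34, 4.81, 5.28 and 5.30 against 5.81, 5.71, 5.66, 5.83 and 5.49. Its difference of 0.50 ± 0.14 was smaller, and 0.08 on its other probe set, but the 16-week mice were above all 15 other arrays, if by a small margin to the 4-week and 12-week mice (highest 5.49 at each). Slc25a34, a carrier of the inner mitochondrial membrane, measured 6.46, 5.70, 6.06, 6.10 and 5.82 against 8.41, 6.96, 6.81, 6.78 and 7.35. Its ratio was 2.35-fold (95% interval 1.65 to 3.34), and no mouse of 4 or 12 weeks exceeded 6.55.

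The rest of the higher genes had smaller differences. Lgals4, a galectin of epithelial cells that binds glycans, differed by 0.67 ± 0.16, and its 16-week values were tight, between 6.07 and 6.33. Pim1, a serine/threonine kinase induced by cytokines, differed by 0.72 ± 0.19, with 2 of the 16-week mice (5.78 and 5.79) close to the highest 8-week mouse (5.70). Its other probe set differed by only 0.03, so the gene is uncertain. Uckl1, a uridine-cytidine kinase-like enzyme, differed by 0.68 ± 0.18. Eif4g3, a translation initiation factor, differed by 0.77 ± 0.22 on its brightest probe set, but the other 3 probe sets of the gene had differences of -0.10, -0.02 and -0.01, so the gene is uncertain as well. In 9 of the 10 higher leading genes mouse 1 at 16 weeks, the array of widest spread, had the highest signal of its age, against 1 of the 10 lower ones. Without that mouse the differences of Slc25a34, Akr1b10, Fads2b and Nr1d1 were 0.95, 1.09, 0.82 and 0.76.

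Of the 10 lower leading genes, 5 were dim, with a mean signal under the 40th percentile of all genes, against 0 of the 10 higher ones. These were Katnal1, Lrch2, Gm4871, Lin28b and Slco4c1. Katnal1, related to the microtubule-severing katanin, measured 4.37, 4.11, 4.22, 4.12 and 4.23 at 8 weeks and 3.69, 3.82, 3.41, 3.59 and 3.65 at 16 weeks (difference -0.58 ± 0.11). Slco4c1, an organic anion transporter, measured 3.86, 3.66, 3.70, 3.86 and 3.85 against 2.86, 2.97, 3.16, 3.20 and 3.07 (difference -0.74 ± 0.17), and its other probe set differed by -0.12. For Slco4c1 the 12-week mice, at 3.91 to 4.08, were above both ages. Lin28b, an RNA-binding regulator of let-7 maturation, Lrch2 and Gm4871 had means between 2.09 and 3.17 at both ages, which is near the bottom of the range of signal on these arrays. Besides Usp2 and Wee1, the brighter lower genes were Adpgk, Slc25a22 and C1qtnf9. Adpgk, an ADP-dependent glucokinase, measured 5.59, 5.58, 5.85, 5.29 and 5.38 against 4.90, 4.87, 5.08, 4.91 and 4.80 (difference -0.63 ± 0.14), and its other probe set differed by only -0.15. Slc25a22, a mitochondrial glutamate carrier, differed by -0.50 ± 0.12 and C1qtnf9, a secreted C1q and TNF related protein, by -0.48 ± 0.11.

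Gpr155 had the lowest p of all genes. Its signals were 10.93, 10.18, 9.42, 10.70 and 9.22 at 8 weeks and 9.75, 7.86, 8.14, 7.10 and 8.01 at 16 weeks. Only mouse 1 at 16 weeks reached into the 8-week range, and the other 4 mice lay below all of it. The ratio was 3.78-fold (95% interval 2.24 to 6.40) in favour of 8 weeks, and with all mice it did not pass (limma adjusted p = 0.231). Without mouse 1 at 16 weeks the difference of -2.31 passed the threshold (limma adjusted p = 0.00195). The gene was chosen by its p and the mouse left out is the one that overlapped, so that pass is not support. At 4 and 12 weeks all 10 mice were between 9.99 and 10.86.

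Seen against 12 weeks, the leading genes did not form a single course. The 12-week mean lay between the means of 8 and 16 weeks for 15 of the 20 genes, nearer to 8 weeks for 13 and nearer to 16 weeks for 7. The 16-week mice stood apart from all 15 other arrays for 4 genes, Slc25a34, Angptl4, Usp2 and Wee1. The 8-week mice did so for 2, Nr1d1 and Fads2b.

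The clock list held 18 measured genes, Nr1d1 among them. At an unadjusted p under 0.05, 3 were lower (Dbp, Tef and Per2) and 3 higher (Nr1d1, Clock and Npas2), beside 4.39% and 1.42% of all genes. None passed the adjusted threshold, and the median difference was -0.13 beside -0.046 over all genes. The time of day of dissection is not given. For the clock genes, and for Usp2 and Wee1, a difference of age thus cannot be told apart from one of hour. Dbp and Tef encode PAR bZIP activators that bind D-box elements, and Per2 a core repressor. Clock and Npas2 encode alternative partners of BMAL1 (Arntl) in the activating complex. Promoter sequences are shown for Usp2 and for the clock genes Nr1d1, Dbp and Tef, because clock factors are known to bind E-box elements near their start sites. Clock, which had a lower p than Tef, is not shown and held no E-box in the windows searched. The windows run from 250 bases before to 50 after each start in RefSeq (build GRCm38.p6), 5′ to 3′ on the strand of the gene, and capitals mark the E-box CACGTG.
Nr1d1 (chr11:98775328-98775627, minus strand): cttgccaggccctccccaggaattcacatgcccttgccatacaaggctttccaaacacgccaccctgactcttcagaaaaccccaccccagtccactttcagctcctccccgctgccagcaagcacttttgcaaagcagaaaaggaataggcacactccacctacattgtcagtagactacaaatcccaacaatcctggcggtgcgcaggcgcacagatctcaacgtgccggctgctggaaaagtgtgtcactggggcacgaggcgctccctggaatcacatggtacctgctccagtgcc
Usp2 (chr9:44084670-44084969, plus strand): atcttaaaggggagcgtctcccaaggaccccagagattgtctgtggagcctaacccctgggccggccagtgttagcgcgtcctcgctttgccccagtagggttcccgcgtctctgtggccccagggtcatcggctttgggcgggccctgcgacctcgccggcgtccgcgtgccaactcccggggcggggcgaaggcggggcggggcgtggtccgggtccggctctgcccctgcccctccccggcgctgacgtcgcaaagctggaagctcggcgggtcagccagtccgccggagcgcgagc
Dbp (chr7:45704997-45705296, plus strand): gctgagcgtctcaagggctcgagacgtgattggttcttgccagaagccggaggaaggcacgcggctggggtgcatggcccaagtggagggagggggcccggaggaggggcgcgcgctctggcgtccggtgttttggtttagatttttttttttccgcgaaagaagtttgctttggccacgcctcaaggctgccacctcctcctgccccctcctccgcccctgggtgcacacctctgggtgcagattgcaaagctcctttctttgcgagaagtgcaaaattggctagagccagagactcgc
Tef, upstream start (chr15:81802423-81802722, plus strand): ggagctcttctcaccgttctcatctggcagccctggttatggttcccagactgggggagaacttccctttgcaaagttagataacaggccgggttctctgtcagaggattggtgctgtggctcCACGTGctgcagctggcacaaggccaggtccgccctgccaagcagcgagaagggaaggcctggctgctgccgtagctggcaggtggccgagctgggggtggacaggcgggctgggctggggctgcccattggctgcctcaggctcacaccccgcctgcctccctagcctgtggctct
Tef, downstream start (chr15:81811164-81811463, plus strand): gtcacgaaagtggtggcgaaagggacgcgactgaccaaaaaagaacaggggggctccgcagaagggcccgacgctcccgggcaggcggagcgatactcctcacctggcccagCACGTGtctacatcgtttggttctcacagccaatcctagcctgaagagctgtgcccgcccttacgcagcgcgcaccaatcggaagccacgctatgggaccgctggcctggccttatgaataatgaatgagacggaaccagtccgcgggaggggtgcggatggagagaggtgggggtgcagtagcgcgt

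Windows were searched on both strands for the E-box CACGTG, the D-box TTANGTAA and the cyclic AMP response element TGACGTCA. Among the 4 genes shown, a match was found in both windows of Tef, an E-box that begins 127 bases before the upstream start and 138 bases before the downstream start. Nr1d1, Usp2 and Dbp held none of these letters in the window shown, which says nothing of elements elsewhere in the genes. An E-box was held by 5 of the 16 clock genes with a window and by 2 of the 17 leading genes with one, and by 8.09% of all 27025 genes with a window. A D-box was held by 1 clock and 1 leading gene (2.72% of all genes), and the response element by 1 clock gene and 0 leading genes (2.03%). Matches of different motifs overlapped in 2 of all 32851 windows, and the matches are descriptions of sequence and not of binding.

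The levels of the clock outputs were as follows. Dbp measured 9.92, 8.02, 8.22, 9.32 and 7.59 at 8 weeks and 7.87, 7.63, 7.51, 6.41 and 7.84 at 16 weeks. The ages overlapped through mouse 5 at 8 weeks, and the difference was -1.16 ± 0.37 (95% interval -1.93 to -0.40, adjusted p = 0.759). At 4 weeks Dbp lay between 9.72 and 10.90 and at 12 weeks between 9.42 and 10.28, so all 5 mice of 16 weeks were under all of these. The mice of 8 weeks were under them as well, other than mouse 1 (9.92). The dimmer probe set of Dbp differed by -0.54. Tef measured 9.64, 9.97, 8.94, 9.86 and 8.86 at 8 weeks and 9.45, 8.49, 8.86, 8.34 and 8.68 at 16 weeks, with overlap and a difference of -0.69 (-1.19 to -0.19). Its other 2 probe sets differed by -0.05 and -0.34. Hlf, the other member of this family of activators, differed by -0.21 (-0.44 to 0.01).

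Of the period and cryptochrome repressors, Per2 measured 5.29, 6.21, 5.51, 5.62 and 5.40 at 8 weeks and 4.71, 5.21, 5.24, 5.28 and 5.37 at 16 weeks. The groups overlapped only in the span from 5.29 to 5.37, with a difference of -0.44 (95% interval -0.83 to -0.05). The 3 probe sets of Per2 did not give the same picture, with differences of -0.44, -1.23 and 0.01. Per1 differed by -0.44 (-0.94 to 0.07), Cry1 by -0.49 (-1.02 to 0.05), Cry2 by -0.31 (-0.78 to 0.17) and Per3 by -0.10 (-0.61 to 0.42). On these probe sets the 5 repressors had negative differences, beside 59.4% of all genes, and the intervals of all but Per2 included 0. The other 5 probe sets of Per3 differed by -0.61, -0.22, 0.02, 0.07 and -0.19.

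On the activator side, Clock measured 5.16, 5.19, 5.53, 4.80 and 5.16 at 8 weeks and 6.06, 5.63, 5.62, 5.52 and 5.36 at 16 weeks. The difference was 0.47 (95% interval 0.13 to 0.80), but another of its 4 probe sets differed by -0.35. Npas2 measured 5.14, 5.06, 5.05, 4.87 and 5.47 against 5.78, 5.02, 5.19, 5.74 and 6.42, with a difference of 0.51 (0.09 to 0.93) on the brighter and -0.09 on the dimmer probe set. Arntl, their shared partner, had a mean of 5.92 at both ages on its brighter probe set (interval of the difference -0.28 to 0.28), while the dimmer one differed by 0.58. Nr1d2, the close relative of Nr1d1, did not share its separation, as it measured 6.75, 6.91, 7.09, 8.30 and 6.26 against 8.12, 7.09, 6.95, 6.71 and 7.39 (difference 0.19, interval -0.44 to 0.82). All the Nr1d2 values of these 2 ages were lower than the 8.53 to 8.96 seen at 12 weeks.

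**Figure D2:**
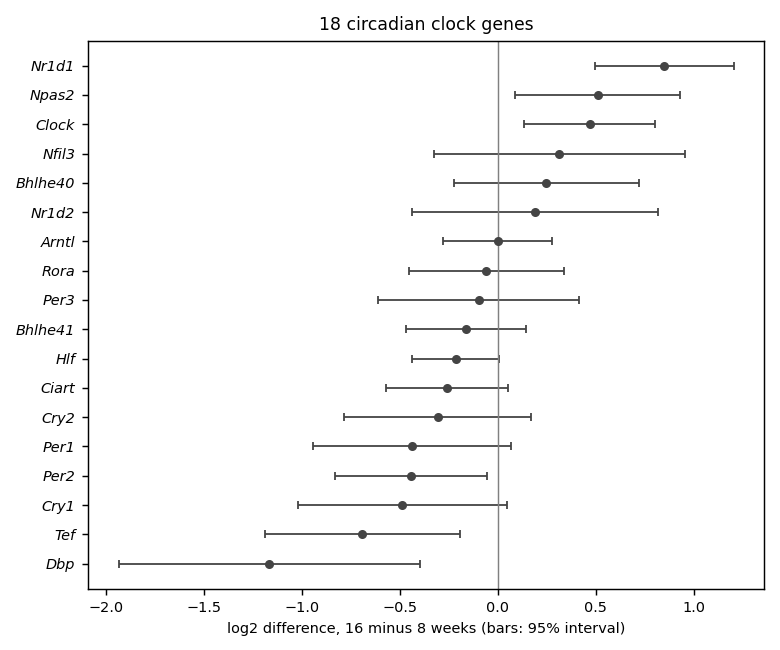
Points are the log2 differences of 18 clock genes, 16 minus 8 weeks, and bars are 95% intervals from the fit. Nr1d1, Npas2 and Clock lie to the right of 0 and Dbp, Tef and Per2 to the left with intervals that leave out 0, before any adjustment over genes.

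Some secretory products varied widely between mice of an age. The 10 genes of highest pooled SD within the 2 ages had SDs of 1.94 to 3.15 on the log2 scale, beside a median of 0.300 over all genes. They included salivary secretory genes and the nuclear noncoding RNA Malat1. Amy1, which encodes salivary amylase and is made chiefly in the parotid gland, measured 5.82, 9.85, 4.25, 3.98 and 3.81 at 8 weeks and 9.37, 4.10, 4.64, 4.71 and 12.35 at 16 weeks. Bpifa2, the parotid secretory protein, measured 9.55, 12.99, 7.49, 6.29 and 7.08 against 11.79, 7.39, 7.47, 6.88 and 13.35. The same 3 mice, mouse 2 at 8 weeks and mice 1 and 5 at 16 weeks, were the highest for both genes, and also for Chia1, Smr3a, Cst10 and Dnase1. The intervals were accordingly wide, at -2.07 to 5.05 for Amy1 and -2.47 to 3.86 for Bpifa2, and the mean of both genes did not separate the ages (difference 1.09, exact permutation test, two-sided p = 0.595). With this mean as a covariate 0 genes passed the threshold, and without the 3 mice 1 gene did, Gpr155. The 3 mice include mouse 1 at 16 weeks, the one that overlapped for Gpr155, so that pass is not support. How much parotid tissue each sample held is not given. These fits used transcript levels in its place, and the part of the tissue itself was not tested.

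A different set of mice stood out for Obp1a, an odorant-binding lipocalin. It measured 4.45, 10.18, 9.99, 5.89 and 10.09 at 8 weeks and 5.45, 5.43, 3.89, 6.06 and 4.12 at 16 weeks. Mice 2, 3 and 5 at 8 weeks were at 9.99 or above, and the other 7 mice were no higher than 6.06, in the range seen at 12 weeks (3.08 to 6.25). At 4 weeks the values were 3.91, 3.56, 13.37, 12.02 and 13.31, so 3 of those 5 mice were high as well. Gm14743 was high in the same 3 mice, at 10.81, 10.12 and 10.37, and at most 6.17 in the rest. The differences, -3.13 for Obp1a (95% interval -6.59 to 0.33) and -2.85 for Gm14743 (-5.95 to 0.24), had intervals that included 0. Dcpp3, a demilune cell and parotid protein, ranged from 7.48 to 13.18 at 8 weeks and from 6.43 to 11.05 at 16 weeks.

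**Figure D3:**
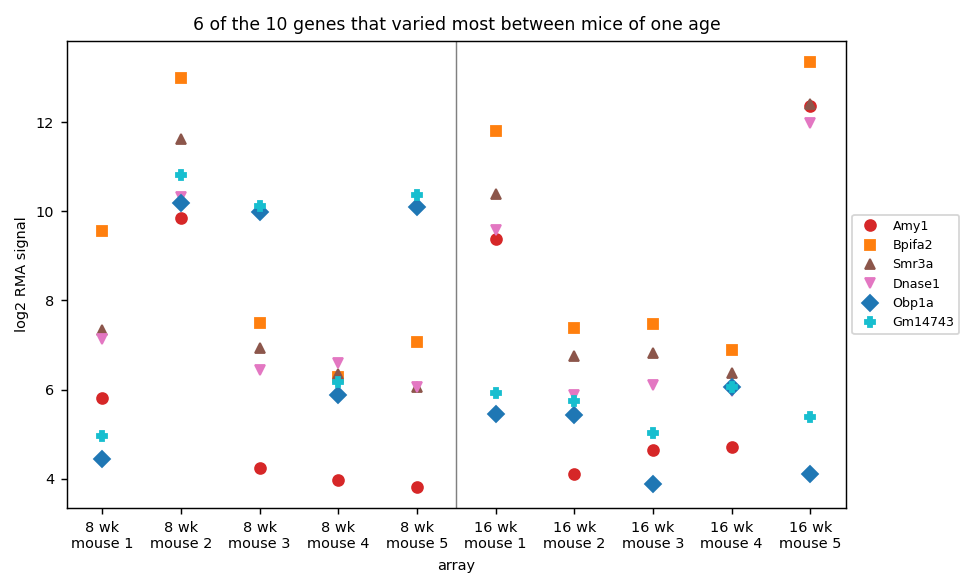
The log2 signal of 6 of the 10 genes that varied most between mice of an age is plotted for each array, 5 mice at 8 weeks left of the grey line and 5 at 16 weeks right of it. Amy1, Bpifa2, Smr3a and Dnase1 are high together in mouse 2 at 8 weeks and mice 1 and 5 at 16 weeks, and Obp1a and Gm14743 in mice 2, 3 and 5 at 8 weeks.

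Of the list of acinar secretion, 19 genes were measured, with a median difference of -0.10, which ranged from -0.22 (without mouse 1 at 16 weeks) to 0.0098 (without mouse 1 at 8 weeks) with single mice left out. At an unadjusted p under 0.05, 2 were lower (Smgc and Orai1) and 2 higher (Itpr2 and Stim1), beside 4.39% and 1.42% of all genes. Smgc, a secretory product of the neonatal submandibular and the sublingual gland, measured 11.22, 10.96, 10.82, 11.76 and 10.84 at 8 weeks and 10.90, 9.45, 11.07, 9.58 and 10.01 at 16 weeks (difference -0.92, 95% interval -1.45 to -0.38, adjusted p = 0.648). Orai1, the pore of the store-operated calcium channel that sustains fluid secretion, measured 5.73, 5.78, 5.73, 5.56 and 5.78 against 5.48, 5.36, 5.50, 5.45 and 5.49. Its ages did not overlap although the difference was only -0.26 (-0.50 to -0.01), and -0.09 on the other probe set. Stim1, which senses ER calcium and opens Orai1, differed by 0.42 (0.02 to 0.83), and Itpr2, an inositol trisphosphate receptor that releases ER calcium, by 0.70 (0.19 to 1.21), with 3 of the 6 Itpr2 probe sets positive. Aqp5, the water channel of the acinar apical membrane, measured 10.27, 10.61, 8.96, 9.83 and 8.23 against 10.46, 8.44, 9.45, 8.19 and 8.65, with broad overlap (-0.54, interval -1.41 to 0.33). Chrm3, the main muscarinic receptor of secretion, differed by 0.05 (-0.26 to 0.37).

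The granular duct products, 13 measured genes, had a median difference of 0.20 with 9 positive and 4 negative, and 0 reached an unadjusted p under 0.05. The median was -0.0464 without mouse 5 at 8 weeks, 0.0141 without mouse 1 at 16 weeks and at most 0.44 with any other mouse left out. Klk1b5, a kallikrein-related peptidase, measured 9.89, 9.36, 8.82, 9.50 and 7.51 at 8 weeks and 10.06, 8.997, 9.74, 8.28 and 9.23 at 16 weeks (difference 0.25, 95% interval -0.59 to 1.08). Egf, the growth factor stored in these ducts, measured 8.56, 8.91, 8.29, 9.40 and 7.21 against 9.96, 8.39, 8.51, 7.84 and 8.79 (0.22, -0.62 to 1.07). Both genes overlapped broadly between the ages, and mouse 5 at 8 weeks was the lowest of all 10 for each. Klk1, the tissue kallikrein, differed by -0.05 (-0.87 to 0.76). The intervals include an increase of up to 2.12-fold in Klk1b5 and 2.10-fold in Egf.

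The ER folding and secretion list had the lowest median of the 36 lists, -0.44 beside -0.046 over all genes. Of its 30 members 28 were negative, beside 59.4% of all genes. At an unadjusted p under 0.05, 5 members were lower and 0 higher, beside 4.39% and 1.42% of all genes, and none passed the adjusted threshold. These were Sec61a1, the channel of the translocon (-0.92, 95% interval -1.82 to -0.02), Dnajc3, an ER co-chaperone (-0.85, -1.67 to -0.03), Kdelr2, a receptor that retrieves ER proteins (-0.80, -1.46 to -0.14), Hyou1, an ER chaperone of the heat shock family (-0.72, -1.28 to -0.15), and Ssr1, a translocon-associated subunit (-0.58, -1.13 to -0.04). Hspa5, the chaperone BiP, measured 10.30, 8.35, 9.10, 10.39 and 7.27 at 8 weeks and 10.52, 8.22, 9.34, 7.43 and 8.51 at 16 weeks. It spanned over 3 log2 units at each age, with a difference of -0.28 (-1.42 to 0.86).

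The level of this list varied widely between the mice of each age. The median signal of its genes was 8.35, 8.17, 7.11, 8.21 and 6.42 at 8 weeks and 8.27, 6.94, 7.61, 6.41 and 7.08 at 16 weeks. Mouse 5 at 8 weeks and mouse 4 at 16 weeks were the lowest, and the same 2 arrays had the narrowest spread of signal of the 10 (1.38 and 1.39). The cytosolic ribosome list, 33 genes with a median difference of -0.35 and 0 at an unadjusted p under 0.05, ran in parallel, with medians of 10.73, 10.28, 9.29, 10.34 and 8.52 at 8 weeks and 10.85, 8.83, 10.02, 8.35 and 9.11 at 16 weeks. With the arrays normalized by cyclic loess the list medians were -0.21 for the ER genes and 0.05 for the ribosomal genes, so the sign of the ribosomal list depended on the scaling. With single mice left out the medians ranged from -0.69 (without mouse 5 at 8 weeks) to -0.27 (without mouse 4 at 8 weeks) for the ER genes and from -0.65 (without mouse 1 at 16 weeks) to -0.0841 (without mouse 4 at 16 weeks) for the ribosomal genes. Hspa8, a constitutive cytosolic chaperone, measured 11.06, 9.68, 9.44, 10.33 and 9.31 against 10.25, 8.42, 9.39, 7.62 and 8.60 (difference -1.10, 95% interval -1.91 to -0.30). Its other probe sets had smaller differences of -0.31, -0.36 and -0.15. The 49 genes of oxidative phosphorylation had a median of -0.18, with 1 lower (Uqcrb) at an unadjusted p under 0.05, beside 4.39% of all genes. Its sign was not stable, as the median was 0.03 after cyclic loess, 0.0882 without mouse 1 at 8 weeks and -0.46 without mouse 1 at 16 weeks, and was also above 0 without mouse 4 at 16 weeks.

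Serine and one-carbon metabolism comprised 13 measured genes with a median of -0.11, of which 3 were lower at an unadjusted p under 0.05, beside 4.39% of all genes. Psat1, the aminotransferase of serine synthesis, measured 6.54, 5.04, 5.10, 6.15 and 4.84 at 8 weeks and 5.28, 3.80, 4.61, 3.55 and 4.51 at 16 weeks. The ages overlapped through mouse 1 at 16 weeks, and the difference was -1.19 ± 0.35 (adjusted p = 0.754). Mthfd2, a mitochondrial folate enzyme, differed by -0.61 (95% interval -1.08 to -0.14) on its brighter and -0.02 on its dimmer probe set, and Aldh1l2, which releases carbon dioxide from mitochondrial formyl-folate, by -0.42 (-0.76 to -0.07). For Psat1 the 12-week mice lay between 7.16 and 7.98, above both ages. Phgdh, the enzyme before Psat1 in the pathway, had means of 9.40 and 9.34 and a difference of -0.06 (-0.35 to 0.24).

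Of polyamine synthesis, 11 genes had a median of -0.20 and 0 reached an unadjusted p under 0.05. Odc1, its rate-limiting decarboxylase, differed by -0.47 (95% interval -1.32 to 0.38), and Azin1, which protects that enzyme from its antizyme, by -0.73 (-1.55 to 0.09). Ret, a receptor tyrosine kinase for neurotrophic factors of the GDNF family, measured 4.84, 5.36, 5.54, 5.47 and 5.21 at 8 weeks and 6.38, 5.25, 5.95, 5.78 and 6.00 at 16 weeks. Only mouse 2 at 16 weeks fell into the 8-week range, and the difference was 0.59 ± 0.21 (adjusted p = 0.759). Tjp3, a scaffold protein of tight junctions, measured 4.86, 4.21, 4.00, 4.84 and 4.01 against 6.25, 5.46, 4.84, 4.79 and 5.34, a difference of 0.95 ± 0.24 (adjusted p = 0.601), and was the 1 higher member among the 22 measured junction genes at an unadjusted p under 0.05, beside 1.42% of all genes.

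In the extracellular matrix, the 22 collagens had a median of 0.06 and 0 at an unadjusted p under 0.05. Col3a1, a fibrillar collagen, measured 7.47, 7.64, 6.95, 8.41 and 6.92 at 8 weeks and 8.29, 7.24, 7.34, 6.38 and 7.58 at 16 weeks, with an interval of -0.82 to 0.60, and Col1a1 an interval of -0.60 to 0.29. Of 26 genes of stromal matrix and turnover (median -0.05), 4 were lower at an unadjusted p under 0.05, namely Timp3, Lox, Timp2 and Mmp13, and 1 higher, Mmp14, beside 4.39% and 1.42% of all genes. Lox, which crosslinks collagen and elastin, measured 4.65, 5.17, 4.85, 4.60 and 4.58 against 3.82, 4.38, 4.44, 4.55 and 4.34. The ages did not overlap, if by a narrow margin, and the difference was -0.47 ± 0.18. Timp2 and Timp3, inhibitors of matrix metalloproteinases, differed by -0.41 (95% interval -0.72 to -0.11) and -0.52 (-0.95 to -0.09). Mmp14, a membrane-bound metalloproteinase, differed by 0.66 (0.19 to 1.13), but only that 1 of its 3 probe sets was positive, and for Timp2 3 of 6 were negative.

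Of 16 genes of B and plasma cells (median -0.21), 14 were negative, beside 59.4% of all genes. Pax5, the B cell identity factor, and Pou2af1, a B cell coactivator, were lower at an unadjusted p under 0.05, beside 4.39% of all genes. Pax5 differed by -0.41 (95% interval -0.74 to -0.07) and Pou2af1 by -0.35 (-0.70 to -0.01). Cd79a, part of the B cell receptor, differed by -0.25 (-0.60 to 0.10) and Igha, the constant chain of secreted IgA, by 0.38 (-0.95 to 1.72). Of the T and NK cell list 1 of 19, of macrophages and dendritic cells 1 of 18, and of the interferon response 1 of 19 were higher at an unadjusted p under 0.05, beside 1.42% of all genes, and 0 were lower. The 5 lymph node markers had a median of -0.10, and Cxcl13 (-0.24, -0.57 to 0.09) and Ccr7 (-0.34, -0.77 to 0.10) had intervals that included 0. The 11 adipocyte genes had the highest median of the lists, 0.28, but Fabp4 and Adipoq, which mark fat cells, had intervals of -1.60 to 1.84 and -1.06 to 1.82.

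**Figure D4:**
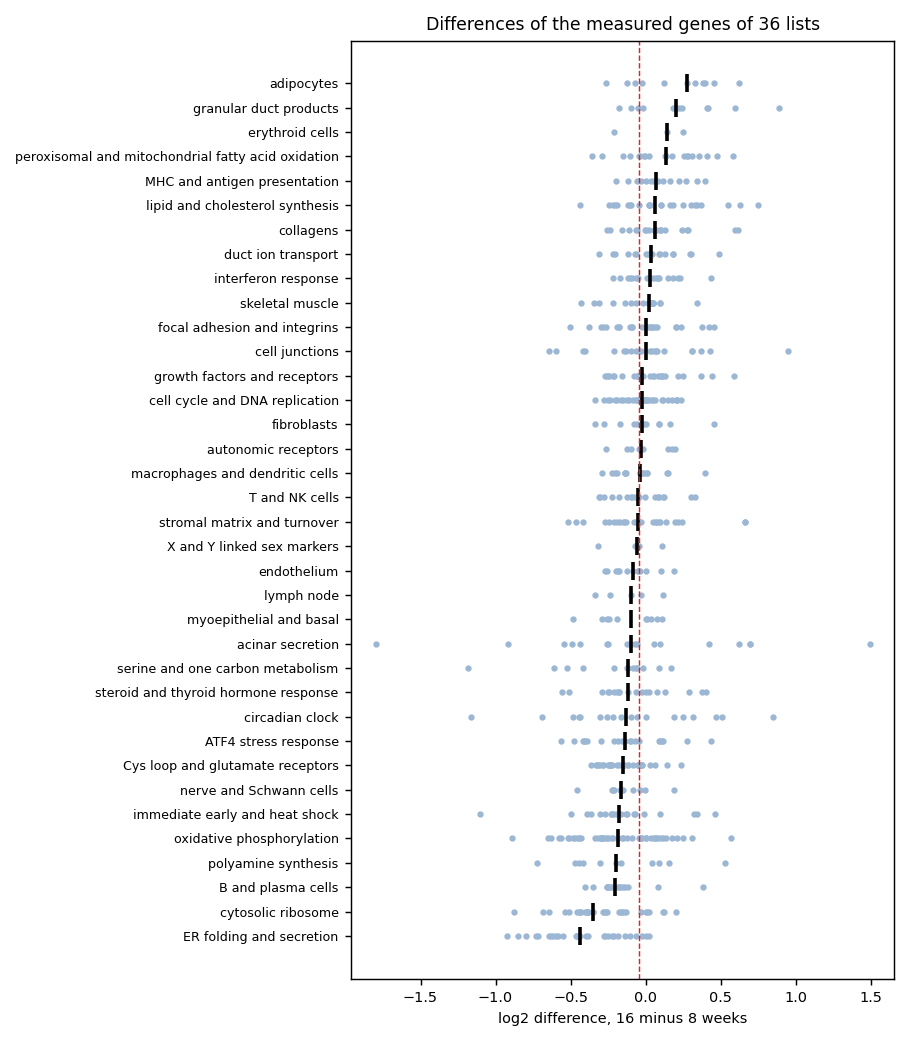
Each blue point is the log2 difference, 16 minus 8 weeks, of a measured gene of the list named on the left, the black bar is the median of the list and the red dashed line the median of all genes (-0.046). The ER folding and ribosomal lists lie furthest to the left (medians -0.44 and -0.35), the adipocyte and granular duct lists furthest to the right (0.28 and 0.20), and the widest scatter is in acinar secretion. The ribosomal median is 0.05 after cyclic loess, the adipocyte median -0.00471 with probe sets averaged and the granular duct median -0.0464 without mouse 5 at 8 weeks.

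The direction of the small differences depended on the level of signal. Of all genes 59.4% had a negative difference, and 75.5% of the 1057 genes at an unadjusted p under 0.05 were lower at 16 weeks. Among the dimmest 1820 genes 207 were lower and 5 higher, with a median difference of -0.13, while among the brightest 1820 there were 50 lower and 26 higher. Of the lower genes 60.3% had a mean signal under the 40th percentile (5.12), against 24.3% of the higher ones. When each array was centred on its median 64.8% of such genes were lower, and after cyclic loess 38.7%, with 412 lower and 652 higher, so no general direction can be given for the genes below the threshold.

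**Figure D5:**
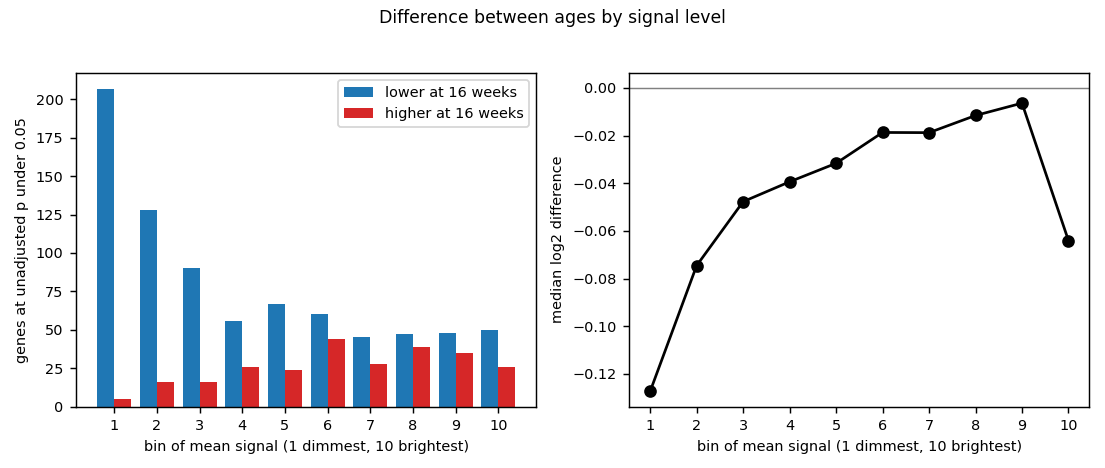
Genes are divided into 10 bins of equal size by mean log2 signal, from the dimmest (1) to the brightest (10). On the left, bars count the genes lower (blue) and higher (red) at 16 weeks at an unadjusted p under 0.05, with 207 and 5 in the dimmest bin, and on the right points give the median log2 difference of each bin.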

How the data were processed

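Total RNA of salivary glands was hybridised to Affymetrix mouse genome arrays, and the authors deposited log2 signals of 45101 probe sets after background correction, quantile normalization and summary by RMA. The values were used as they are. Quantile normalization aligns the arrays before summary and so can hide a shift shared by most genes. The platform annotation gave 34958 probe sets a single symbol, of which 34754 are known to RefSeq, gave 932 more than 1 and left out 9211. A gene was represented by its probe set of highest mean over the 20 arrays (18194 genes).

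Arrays have no read depth, so precision is limited by the 5 mice per age. The model was fitted with limma (version 3.58.1, R 4.3.3) on the 20 arrays, a mean for each of 4 ages and the contrast of 16 minus 8 weeks, with moderated tests, 95% intervals and Benjamini-Hochberg adjustment over all genes at a threshold of 0.05. Values of single arrays were compared by exact permutation tests over 252 labelings. The steps were tested on simulated data. Gene symbols, RefSeq promoters and 36 gene lists were matched by symbol. Genes were named by rule, up to 10 per direction of lowest p with ages that did not overlap, list members of the same kind, and a set of fixed genes, some of which are not reported here. Gpr155, the clock members Tef, Clock and Npas2, and the further list members and variable genes given with values were added after their values had been seen. The lists and genes were chosen with earlier results of these data known. Alternatives are given with the results that depend on the processing.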

Additional observations from a re-analysis of the deposited data

Results flagged for a closer look

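Of 124 groups of 5 mice examined, each an age of a named gene or of a measure of the whole array, 7 held a mouse whose gap to the nearest other was wide against the range of its group. Chance gives such a gap in about 1 in 20 groups. At 8 weeks these were mouse 3 for Fads2b (6.84) and for Angptl4 (4.81), each the lowest of its age, and mouse 4 for Orai1 (5.56), also the lowest. At 16 weeks they were mouse 1 for Lox (3.82) and for Per2 (4.71), mouse 4 for Dbp (6.41) and mouse 2 for Aldh1l2 (6.14), all of them the lowest of their age. Mouse 1 at 16 weeks was also the array of widest spread of signal, and the part of that spread in these values was not tested.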

How the results depend on the processing

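No gene passed the adjusted threshold in 17 of the 22 other settings tried. The exceptions were cyclic loess (7 genes), the SD of each array as a covariate (12), array weights (1) and, chosen after seeing the data, the omission of the 3 mice of high Amy1 (1), besides the fit without mouse 1 at 16 weeks (1), so that the range over single mice left out was 0 to 1. The cause was not tested. The 7 genes after cyclic loess were the 6 named above and Pdcd4 (1.41), and with the covariate the others were Psat1 (-1.25), Galnt3 (-0.997), Sec61a1 (-1.01), Tjp3 (0.91), Wee1 (-0.76) and Hdlbp (-0.76). Gpr155 was the gene that passed with array weights (-2.23) and without the 3 mice (-2.37). A fit of the 10 arrays of these ages alone gave 0 genes and a lowest adjusted p of 0.998.

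Replicate numbers were used as a block in 1 fit, where 0 genes passed (lowest adjusted p 0.442). Deviations of same-numbered mice correlated at 0.583, 0.030, -0.289, -0.567 and 0.022, and only mouse 1 correlated best with its own number, so the mice share a number and are not treated as pairs.

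Signs turned for Egf with array weights (-0.0372) and without the 3 mice (-0.118), for Nr1d2 likewise (-0.0366 and -0.186), for Xist likewise (-0.0106 and -0.120), for Bpifa2 without the 3 mice (-0.355), for Hspa5 after cyclic loess (0.0132), for Timp2 as the mean of its probe sets (0.0285) and for Arntl with parotid products as a covariate (-0.00466). With single mice left out the differences ranged from -0.13 to 0.49 for Klk1b5, -0.0921 to 0.46 for Egf, -0.34 to 0.14 for Col3a1, -0.31 to 0.0108 for Col1a1, -0.0291 to 0.50 for Nr1d2, -0.0780 to 0.0783 for Arntl, -0.73 to 0.0639 for Hspa5, -0.0933 to 0.28 for Xist and -0.30 to 1.77 for Bpifa2. The difference in spread of signal ranged from -0.0453 to 0.0446. The median of the adipocyte list was -0.00471 when probe sets were averaged. With 5 mice an age the 95% interval of a difference had a median half-width of 0.374.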
